A study of Mus musculus with 18 samples.

Results

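Interferon response genes are the genes a cell switches on when it receives an interferon, a cytokine released on contact with viruses, other microbes or misplaced nucleic acid. Here they are 38 listed mouse genes, found by symbol among the 18946 genes of the deposited liver RNA table. All 38 were in the table, and all 38 passed the filter on low values of at least 0.5 TPM in at least 8 libraries, as did 13895 genes in all. TPM is a read number divided by gene length and scaled to the same total in each library, so that it compares genes per length.

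Type I interferons act through a receptor whose kinases phosphorylate STAT proteins. A complex holding Stat2 and Irf9 then binds the interferon-stimulated response element (ISRE) in promoters, whereas interferon gamma acts mainly through the gamma-activated site (GAS) and through Irf1. In liver both programs are known from hepatocytes, Kupffer cells, which are the resident macrophages, endothelial cells and lymphocytes.

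Livers came from male mice of the inbred strain C57BL/6J in 2 groups: 10 Old mice, 19.76 months of age, and 8 Young mice, 6.18 months of age. Elsewhere in the labels the age of the Old mice is rounded or stated slightly differently. The labels name no engineered allele, and each library is 1 mouse. All mice had been catheterised and fasted overnight, and every liver was frozen right after a hyperinsulinemic-euglycemic clamp, a test in which insulin runs in steadily and infused glucose keeps blood sugar constant. No liver without insulin infusion was compared. RNA came from an AllPrep kit in 5 Old and 3 Young mice and from an RNeasy kit in 5 Old and 5 Young mice, and ribosomal RNA was depleted. The comparison asks how these genes differ between Old and Young livers under insulin.

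Whole read numbers could be recovered from the table, up to a factor common to all libraries of a gene. They came to 85790735 to 127487820 reads per library over the listed genes, so members at low TPM still rested on many reads. Oas2, with a mean of 1.36 scaled TPM over the 18 mice the lowest member, had 85 to 624 reads per library. Hepatocyte markers were high throughout, with a summed level of 97130 to 150133 scaled TPM over 8 genes in Old livers and 90098 to 125670 scaled TPM in Young livers. Scaled TPM is the deposited TPM divided by a composition factor per library, which lay between 0.876 and 1.08. Fold changes are on the scale of log2(scaled TPM + 0.5), Old over Young, and understate changes of low genes. In bulk tissue more cells of a type and more RNA per cell cannot be told apart. Guanylate-binding, immunity-related GTPase, Oas and Ifit genes have near-identical relatives, and the strand setting of the counting is not given in the sources used here; reads may be split between relatives or shared by neighbouring genes such as Psmb9 and Tap1.

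Promoters, from 250 bases before to 50 bases after the annotated start, were in the RefSeq table (mouse build GRCm38.p6) for 31 of the 38 members. An ISRE-type run, GAAANNGAAA on either strand, occurred in 17 of the 31 (54.8%), against 3.99% of the 27025 genes with a promoter there. A GAS-type run, TTCNNNGAA on either strand, occurred in 11 of the 31 (35.5%), against 9.55% of all genes. Both runs, which may overlap, occurred in 7 of the 31 (22.6%), against 0.614% of all genes. A gene with more than 1 annotated start counted once if any of its windows held the run. All 7 interferon-inducible GTPases with a promoter held the ISRE-type run (Gbp2, Gbp3, Gbp5, Gbp7, Igtp, Irgm1 and Irgm2). It also stood in 7 of 12 antiviral effectors, 1 of 4 signalling factors (Stat2), 1 of 3 sensors and regulators (Ifih1) and 1 of 5 chemokine and antigen processing genes (Cxcl10). A run is a match of letters, not a measured binding site. The promoters below are those of Stat2, the member called by the age test, and of 5 further members that hold the run, from the chemokines, GTPases and antiviral effectors, so that its number and spacing can be seen. They are given 5′ to 3′ on the gene's strand with the ISRE-type runs in capitals. Stat2 lies at chr10:128270248-128270547 (plus strand), Cxcl10 at chr5:92348840-92349139 (minus strand), Gbp2 at chr3:142620413-142620712 (plus strand), Irgm1 at chr11:48871371-48871670 (minus strand), Ifit3 at chr19:34583279-34583578 (plus strand) and Isg15 at chr4:156200769-156201068 (minus strand).
Stat2: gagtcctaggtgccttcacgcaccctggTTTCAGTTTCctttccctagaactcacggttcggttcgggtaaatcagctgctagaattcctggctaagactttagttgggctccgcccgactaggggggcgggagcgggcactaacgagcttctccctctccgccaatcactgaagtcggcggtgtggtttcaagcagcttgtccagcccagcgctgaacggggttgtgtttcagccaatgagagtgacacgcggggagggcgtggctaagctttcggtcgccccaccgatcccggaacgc
Cxcl10: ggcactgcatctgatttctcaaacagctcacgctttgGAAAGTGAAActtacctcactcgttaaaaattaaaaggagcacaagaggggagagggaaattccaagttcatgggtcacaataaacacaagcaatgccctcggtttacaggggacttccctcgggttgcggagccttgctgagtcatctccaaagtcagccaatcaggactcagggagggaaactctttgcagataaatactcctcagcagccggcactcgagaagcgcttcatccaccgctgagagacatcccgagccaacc
Gbp2: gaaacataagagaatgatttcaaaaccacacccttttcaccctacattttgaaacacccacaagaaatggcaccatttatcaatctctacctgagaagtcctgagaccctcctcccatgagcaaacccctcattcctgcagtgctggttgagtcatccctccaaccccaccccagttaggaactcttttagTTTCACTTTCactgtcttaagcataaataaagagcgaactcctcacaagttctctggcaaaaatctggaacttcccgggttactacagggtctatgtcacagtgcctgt
Irgm1: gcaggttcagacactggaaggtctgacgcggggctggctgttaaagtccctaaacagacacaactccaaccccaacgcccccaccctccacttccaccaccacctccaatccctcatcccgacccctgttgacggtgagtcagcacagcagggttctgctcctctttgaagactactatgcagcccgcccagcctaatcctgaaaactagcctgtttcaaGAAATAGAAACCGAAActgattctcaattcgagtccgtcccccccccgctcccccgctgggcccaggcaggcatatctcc
Ifit3: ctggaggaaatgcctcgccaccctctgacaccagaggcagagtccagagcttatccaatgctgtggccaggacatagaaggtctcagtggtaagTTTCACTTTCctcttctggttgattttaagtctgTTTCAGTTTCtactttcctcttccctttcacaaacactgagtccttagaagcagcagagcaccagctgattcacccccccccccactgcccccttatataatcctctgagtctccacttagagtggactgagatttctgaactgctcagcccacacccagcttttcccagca
Isg15: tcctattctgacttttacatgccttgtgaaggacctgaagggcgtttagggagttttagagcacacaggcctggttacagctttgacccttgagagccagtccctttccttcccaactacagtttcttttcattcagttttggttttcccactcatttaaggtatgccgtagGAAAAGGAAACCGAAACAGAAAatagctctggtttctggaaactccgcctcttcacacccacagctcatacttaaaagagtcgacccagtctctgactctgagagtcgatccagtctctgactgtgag
Counted from the annotated start, the run of Stat2 began at -222 and that of Cxcl10 at -213, whereas that of Gbp2 began at -59. Irgm1 held overlapping runs at -30 and -24, Ifit3 separate runs at -156 and -122, and Isg15 an overlapping series at -78, -72 and -66.

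Most members sat somewhat higher in Old than in Young livers, but 1 of the 38, Stat2, was called. The log2 fold was positive for 35 members, with a median of 0.24, against 50.9% positive and a median of 0.00 over all 13895 genes. Called means a Benjamini-Hochberg adjusted p under 0.05 over all genes, from a limma model of age plus kit. That rule called 2.44% of all genes higher and 2.47% lower, so 1 member higher and 0 lower is close to the background. At an unadjusted p under 0.05, 10 members were higher and 0 lower, against 11.8% of all genes higher. The 3 members with a negative log2 fold were Ifi35 (-0.06), Bst2 (-0.05) and Parp9 (-0.02); without the composition factor Ifi35 alone was negative, where 62.7% of all genes were positive, and with median-of-ratios scaling the same 3 were negative. The levels of Old and Young livers overlapped for all 38 members, whereas they did not for 0.417% of all genes.

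**Figure D1:**
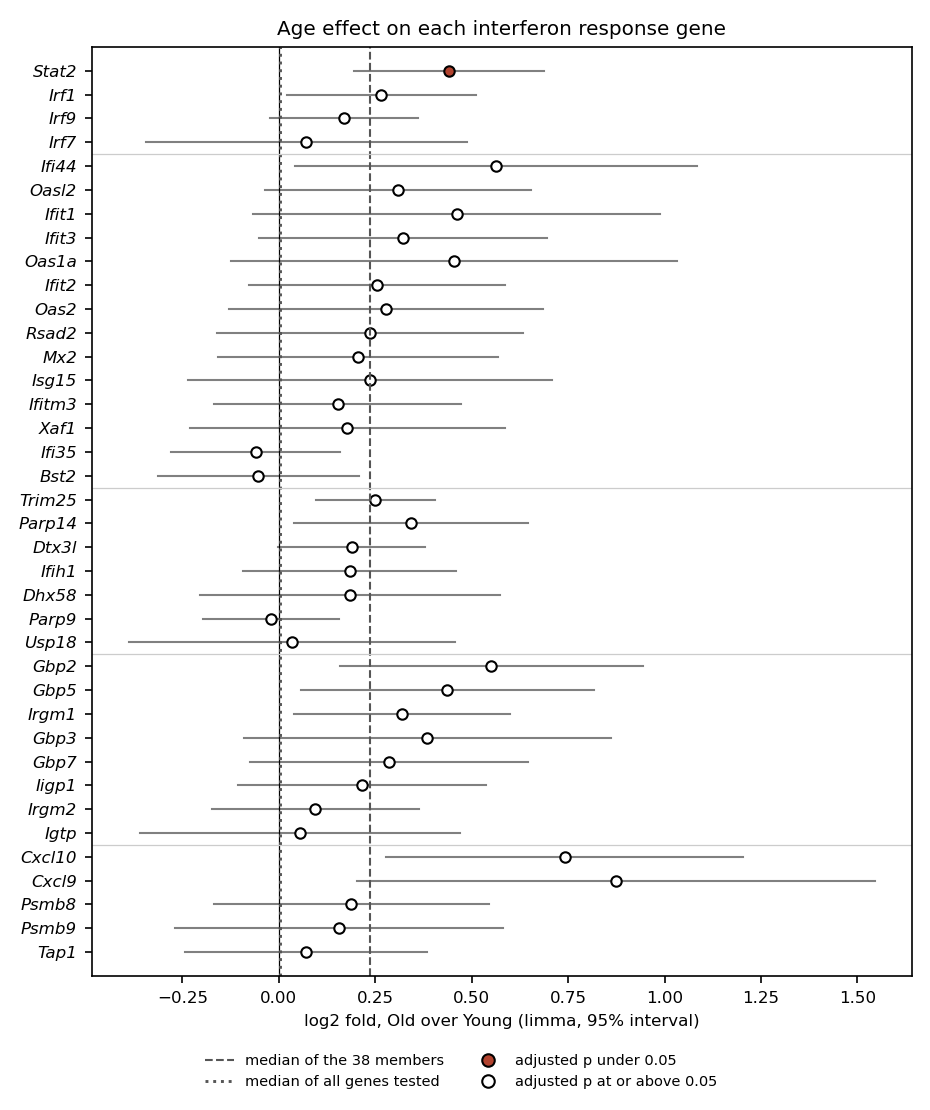
Log2 fold of each of the 38 members, Old over Young, with its 95% interval from limma, grouped by role and ordered by p within a role. The filled point is Stat2, the called member, the dashed line is the members' median of 0.24, and the dotted line is the median of all genes tested.

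Among the 4 signalling transcription factors Stat2 rose and the others did not pass the test. Stat2, the partner of Irf9 in the complex that binds the ISRE, ranged from 17.0 to 28.0 scaled TPM in Old livers (median 26.5) and from 10.6 to 25.9 scaled TPM in Young livers (median 19.8). In 9 of 10 Old livers it exceeded the Young median, the low one being Old 18, and the 3 lowest Young livers were the 3 AllPrep ones. Its means were 24.8 ± 3.52 scaled TPM in Old (SD, n = 10) and 19.2 ± 5.13 scaled TPM in Young (SD, n = 8), and the fitted log2 fold was 0.44 ± 0.12 (SE, adjusted p = 0.0397). Irf1, the factor central to the interferon gamma response, ranged from 17.0 to 30.9 scaled TPM in Old livers (median 21.9) and from 15.1 to 24.6 scaled TPM in Young livers (median 17.5), and the log2 fold was 0.27 ± 0.12 (SE, adjusted p = 0.178). Irf9, the DNA-binding partner of Stat2, ranged from 23.5 to 45.1 scaled TPM in Old livers (median 33.1) and from 25.4 to 31.7 scaled TPM in Young livers (median 30.5). Old over Young, the log2 fold came to 0.17 ± 0.09 (SE, adjusted p = 0.274). Irf1 exceeded the Young median in 9 and Irf9 in 8 of 10 Old livers. Irf7, which drives interferon alpha genes, was spread more widely in Old than in Young livers: Old livers ran from 29.4 to 110.1 scaled TPM (median 49.4) and thus past Young livers at both ends, at 39.6 to 60.7 scaled TPM (median 48.9). The fit gave a log2 fold of 0.07 ± 0.20 (SE, adjusted p = 0.858).

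The Stat2 call depended on which libraries and terms were in the fit. It was kept in 7 of the 18 fits that left out 1 library, with log2 folds between 0.34 and 0.49 and adjusted p between 0.0234 and 0.0791. It was lost without any one of Old 5, 7, 8, 9 and 15 or Young 1, 2, 3, 4, 10 and 13. With no kit term the log2 fold was 0.39 (adjusted p = 0.125), and adding body weight to the model gave 0.25 (adjusted p = 0.648). Body weight at the clamp was 35.1 to 55.0 g in Old and 26.6 to 34.8 g in Young mice, without overlap, so that age and weight cannot be told apart. Stat2 was also called lower with the AllPrep than with the RNeasy kit, at a log2 fold of -0.38 ± 0.12 (SE, adjusted p = 0.0322).

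The chemokines had the largest log2 folds among the members, and neither passed the test. Cxcl10, which like Cxcl9 attracts T and NK cells through the receptor Cxcr3, ranged from 5.12 to 20.3 scaled TPM in Old livers (median 10.1) and from 4.05 to 8.90 scaled TPM in Young livers (median 5.61). It was higher than the Young median in 9 of 10 Old livers. On the log2 scale Old exceeded Young by 0.74 ± 0.22 (SE, adjusted p = 0.0605), and it was called without Old 6 (0.87, adjusted p = 0.0209) or without Old 5 (0.79, adjusted p = 0.04998). Cxcl9 ranged from 4.53 to 26.4 scaled TPM in Old livers (median 12.3) and from 3.54 to 11.0 scaled TPM in Young livers (median 6.20). Its means were 13.2 ± 7.39 scaled TPM in Old (SD, n = 10) and 6.19 ± 2.41 scaled TPM in Young (SD, n = 8), and the log2 fold was 0.87 ± 0.32 (SE, adjusted p = 0.115). The highest Cxcl9 values were in Old 9, Old 14, Old 8 and Old 5, and 5 of the 10 Old livers, Old 6, Old 7, Old 16, Old 17 and Old 18, lay within the Young range.

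The antigen processing members had smaller log2 folds than the chemokines, and 0 of the 3 passed the test. Psmb8 and Psmb9 are catalytic subunits of the immunoproteasome, which cuts proteins into peptides for MHC class I. Psmb8 ranged from 27.2 to 66.5 scaled TPM in Old livers (median 44.0) and from 26.6 to 49.0 scaled TPM in Young livers (median 37.3), and the log2 fold was 0.19 ± 0.17 (SE, adjusted p = 0.528). Psmb9 ranged from 6.82 to 21.7 scaled TPM in Old livers (median 14.4) and from 8.36 to 18.9 scaled TPM in Young livers (median 11.2), and the log2 fold was 0.16 ± 0.20 (SE, adjusted p = 0.671). Tap1, a subunit of the transporter that carries those peptides into the endoplasmic reticulum, had a log2 fold of 0.07. The median log2 fold of the 5 chemokine and antigen processing members was 0.19, with all 5 positive and 0 called.

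**Figure D2:**
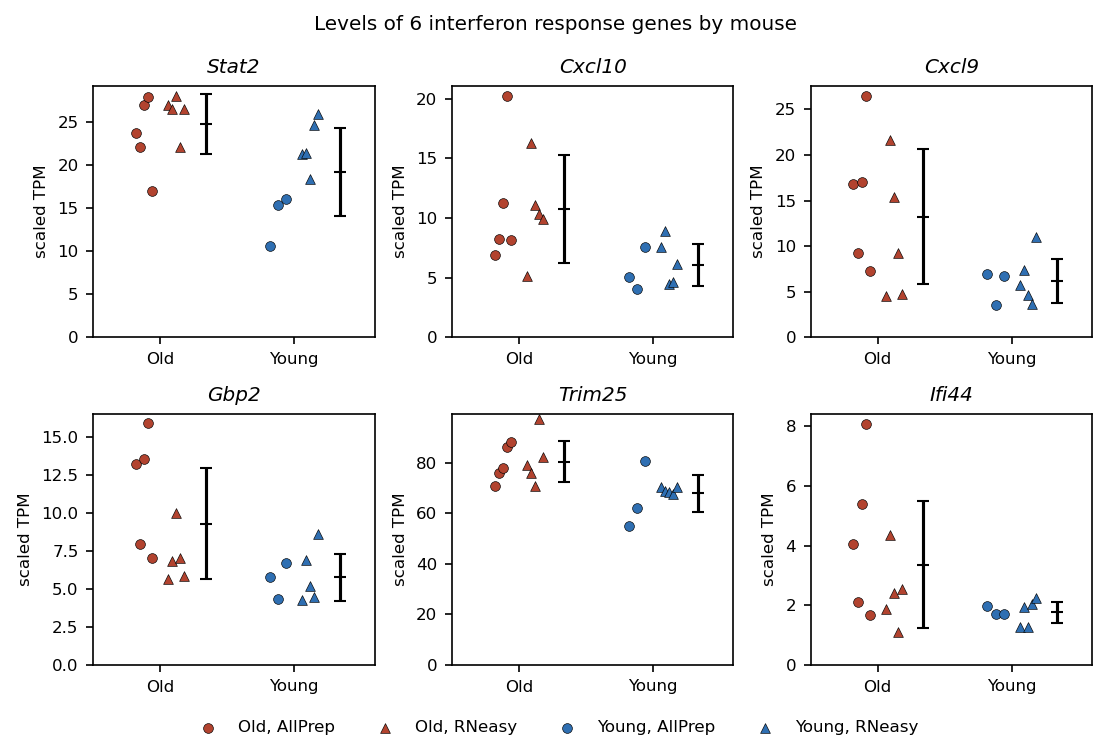
Scaled TPM of Stat2, Cxcl10, Cxcl9, Gbp2, Trim25 and Ifi44 in each mouse, Old left of Young, with circles for AllPrep and triangles for RNeasy libraries and with bars for the mean ± SD (n = 10 Old and 8 Young). Groups overlap for each gene; the 3 lowest Stat2 values are AllPrep libraries of Young mice, and the 3 highest Gbp2 values are AllPrep libraries of Old mice.

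The interferon-inducible GTPases, some of which coat and disrupt vacuoles of intracellular microbes, had positive log2 folds for all 8 members, with a median of 0.30 and 0 called. Gbp2, a guanylate-binding protein, ranged from 5.63 to 15.9 scaled TPM in Old livers (median 7.47) and from 4.23 to 8.61 scaled TPM in Young livers (median 5.47). All 10 Old livers were above the Young median, and Old 9, Old 8 and Old 5 were above every Young liver by the widest margin. Old over Young, the log2 fold came to 0.55 ± 0.19 (SE, adjusted p = 0.0917). Gbp5, which promotes inflammasome assembly, ranged from 1.45 to 4.90 scaled TPM in Old livers (median 2.52) and from 1.24 to 2.29 scaled TPM in Young livers (median 1.87), and the log2 fold was 0.44 ± 0.18 (SE, adjusted p = 0.153). Gbp3 ranged from 3.36 to 13.5 scaled TPM in Old livers (median 4.64) and from 2.77 to 6.31 scaled TPM in Young livers (median 3.86), and the log2 fold was 0.39 ± 0.23 (SE, adjusted p = 0.316). Gbp5 exceeded the Young median in 8 and Gbp3 in 7 of 10 Old livers. Irgm1, which regulates the other immunity-related GTPases, ranged from 44.7 to 90.3 scaled TPM in Old livers (median 63.3) and from 37.6 to 67.8 scaled TPM in Young livers (median 50.1). In 9 of 10 Old livers it exceeded the Young median, and the log2 fold was 0.32 ± 0.13 (SE, adjusted p = 0.157). The remaining GTPases were Gbp7, Irgm2, Igtp and Iigp1, with log2 folds of 0.05 to 0.29. Iigp1 was the most abundant GTPase per length, with a mean of 246 scaled TPM over all mice.

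The 14 members best known as antiviral effectors had a median log2 fold of 0.24, with 12 positive (13 without the composition factor) and 0 called. Ifi44, an interferon-induced cytoplasmic protein, ranged from 1.11 to 8.07 scaled TPM in Old livers (median 2.48) and from 1.26 to 2.25 scaled TPM in Young livers (median 1.83), and Old 16 was the lowest of all mice. The fit gave a log2 fold of 0.56 ± 0.25 (SE, adjusted p = 0.179). Ifit1, which binds RNA lacking host cap methylation, ranged from 5.38 to 20.7 scaled TPM in Old livers (median 12.3) and from 4.96 to 15.2 scaled TPM in Young livers (median 8.00), and the log2 fold was 0.46 ± 0.25 (SE, adjusted p = 0.279). Ifi44 and Ifit1 each exceeded the Young median in 8 of 10 Old livers. Ifit3, a partner of Ifit1, ranged from 6.61 to 22.3 scaled TPM in Old livers (median 12.9) and from 7.33 to 16.5 scaled TPM in Young livers (median 8.98), and the log2 fold was 0.32 ± 0.18 (SE, adjusted p = 0.286). Oasl2, of the oligoadenylate synthetase family, ranged from 3.33 to 11.3 scaled TPM in Old livers (median 5.71) and from 3.92 to 5.66 scaled TPM in Young livers (median 4.36), and the log2 fold was 0.31 ± 0.16 (SE, adjusted p = 0.266). In Ifi44, Ifit3 and Oasl2 the lowest mouse was an Old one, so the Old range reached past the Young range at both ends.

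Other antiviral members showed the same wide overlap. Isg15, a ubiquitin-like protein attached to other proteins, ranged from 4.60 to 15.4 scaled TPM in Old livers (median 9.68) and from 5.07 to 12.0 scaled TPM in Young livers (median 7.96). Mx2, a gene of the dynamin-like GTPase family, ranged from 2.64 to 8.21 scaled TPM in Old livers (median 6.10) and from 3.02 to 7.10 scaled TPM in Young livers (median 4.96). Ifitm3, which hinders viral entry, was the most abundant member per length, at 514 to 1472 scaled TPM in Old livers (median 838) and 517 to 1157 scaled TPM in Young livers (median 718). Isg15 and Ifitm3 exceeded the Young median in 8 and Mx2 in 6 of 10 Old livers. Log2 folds of the 10 antiviral effectors beside Ifi44, Ifit1, Ifit3 and Oasl2, namely Isg15, Ifit2, Oas1a, Oas2, Mx2, Rsad2, Bst2, Ifitm3, Ifi35 and Xaf1, lay between -0.06 and 0.45, the highest being that of Oas1a, an enzyme that signals double-stranded RNA to a ribonuclease.

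Sensors and regulators had a median log2 fold of 0.19, with 6 of 7 positive (7 without the composition factor) and 0 called. Trim25, a ubiquitin ligase that acts on the RNA sensor RIG-I, ranged from 71.0 to 97.4 scaled TPM in Old livers (median 78.6) and from 55.0 to 80.6 scaled TPM in Young livers (median 68.7). All 10 Old livers were above the Young median, and Young 13 alone among Young livers exceeded 71.0. On the log2 scale Old exceeded Young by 0.25 ± 0.07 (SE, adjusted p = 0.0582), and it was called without Young 13 (0.30, adjusted p = 0.0275), without Old 14 (0.26, adjusted p = 0.0424) or without Old 5 (0.26, adjusted p = 0.0494). Parp14, an ADP-ribosyltransferase, ranged from 16.0 to 32.4 scaled TPM in Old livers (median 19.9) and from 12.3 to 21.2 scaled TPM in Young livers (median 18.1), and the log2 fold was 0.34 ± 0.14 (SE, adjusted p = 0.160). Dtx3l, the ubiquitin ligase that pairs with Parp9, ranged from 43.0 to 64.6 scaled TPM in Old livers (median 54.1) and from 36.7 to 57.4 scaled TPM in Young livers (median 45.7), and the log2 fold was 0.19 ± 0.09 (SE, adjusted p = 0.220). Ifih1, the sensor MDA5 for long double-stranded RNA, ranged from 12.6 to 26.2 scaled TPM in Old livers (median 20.1) and from 12.9 to 21.4 scaled TPM in Young livers (median 17.2), and the log2 fold was 0.18 ± 0.13 (SE, adjusted p = 0.415). Parp14 and Ifih1 exceeded the Young median in 8 and Dtx3l in 7 of 10 Old livers. Dhx58, Usp18 and Parp9 had log2 folds of 0.19, 0.03 and -0.02. Usp18 removes Isg15 from proteins and dampens the type I receptor.

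The members varied widely between mice of one age, and they varied together. The residual SD of a member after age and kit had a median of 0.39 in log2 units, against 0.20 over all genes tested, and 34 of 38 members lay above that all-gene median. Cxcl9 was the most variable member (0.73, at the 97.1 percentile of all genes), and Trim25 the least (0.15, at the 26.2 percentile). Such spread was not particular to the members. Among the 11 Kupffer cell and macrophage markers described below, the residual SD ran from 0.28 (Clec4f) to 1.07 (Marco). Among the 9 tested T and NK cell markers it ran from 0.26 (Cd4) to 0.60 (Gzma). From the lowest to the highest of the 18 livers a member spanned 1.49-fold (Parp9) to 7.47-fold (Cxcl9), with a median of 3.02-fold. The first principal component of the members' residuals held 58.0% of their variance, and 37 of 38 members had the same sign on it. Trim25 was the exception, with 1.66% of its residual variance on that component, whereas Gbp7 had 87.5% and Irgm1 86.9%. Old 9, Young 12 and Old 8 scored highest on it and Old 18 lowest. Within the 8 GTPases the first component held 76.0%. In other gene lists, described below, its share ran from 30.4% (9 negative regulators) to 93.6% (4 neutrophil markers). It was 58.1% in 13 MHC class I genes. Since the members moved together between mice, 35 positive members are not 35 separate observations.

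**Figure D3:**
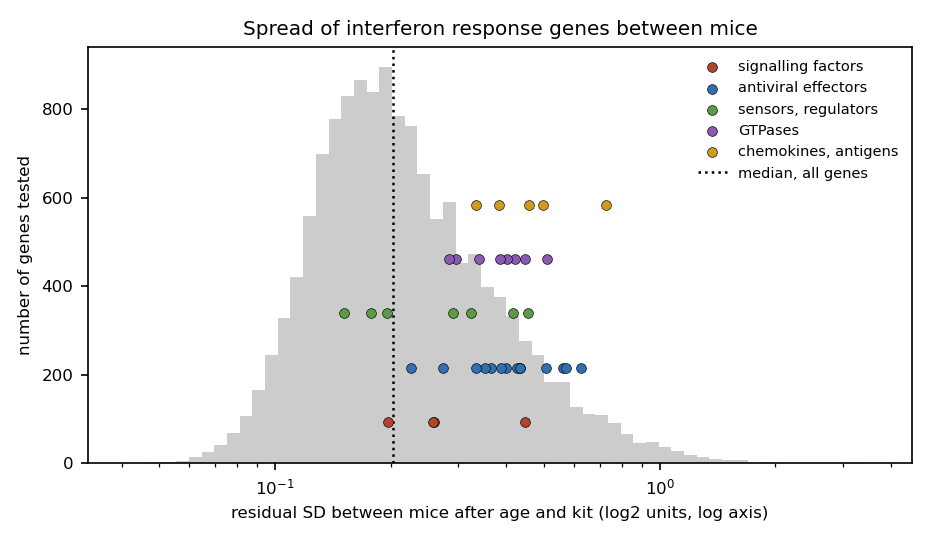
Residual SD between mice after age and kit, in log2 units on a log axis, for all 13895 genes tested (grey histogram, vertical axis in genes) and for the 38 members (points, set at an arbitrary height per role group). The dotted line is the median of all genes, 0.20, and 34 of the 38 points lie to its right.

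A few Old livers held the highest levels of most members. The highest of the 18 livers was an Old one for all 38 members: Old 9 for 15 members, Old 8 for 10, Old 5 for 6, Old 14 for 4, and Old 15, Old 16 and Old 17 for 1 each. The lowest was an Old liver for 18 members and a Young liver for 20. As 10 of the 18 livers are Old and the members vary together, these are not 38 separate observations. The share of all genes that were highest in an Old liver was not computed. Old 9 was among the 3 highest for 32 members, Old 8 for 29, Old 5 for 23 and Old 14 for 13. Averaged over the 38 members, the deviation from the 18-liver mean in log2 units was 0.71 in Old 9, 0.57 in Old 8, 0.44 in Old 5 and 0.28 in Old 14. It was between -0.30 (Old 16) and 0.12 (Old 15) in the other Old livers and between -0.43 (Young 4) and 0.14 (Young 12) in Young livers. Old 9, Old 8 and Old 5 are AllPrep libraries and Old 14 is an RNeasy library.

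**Figure D4:**
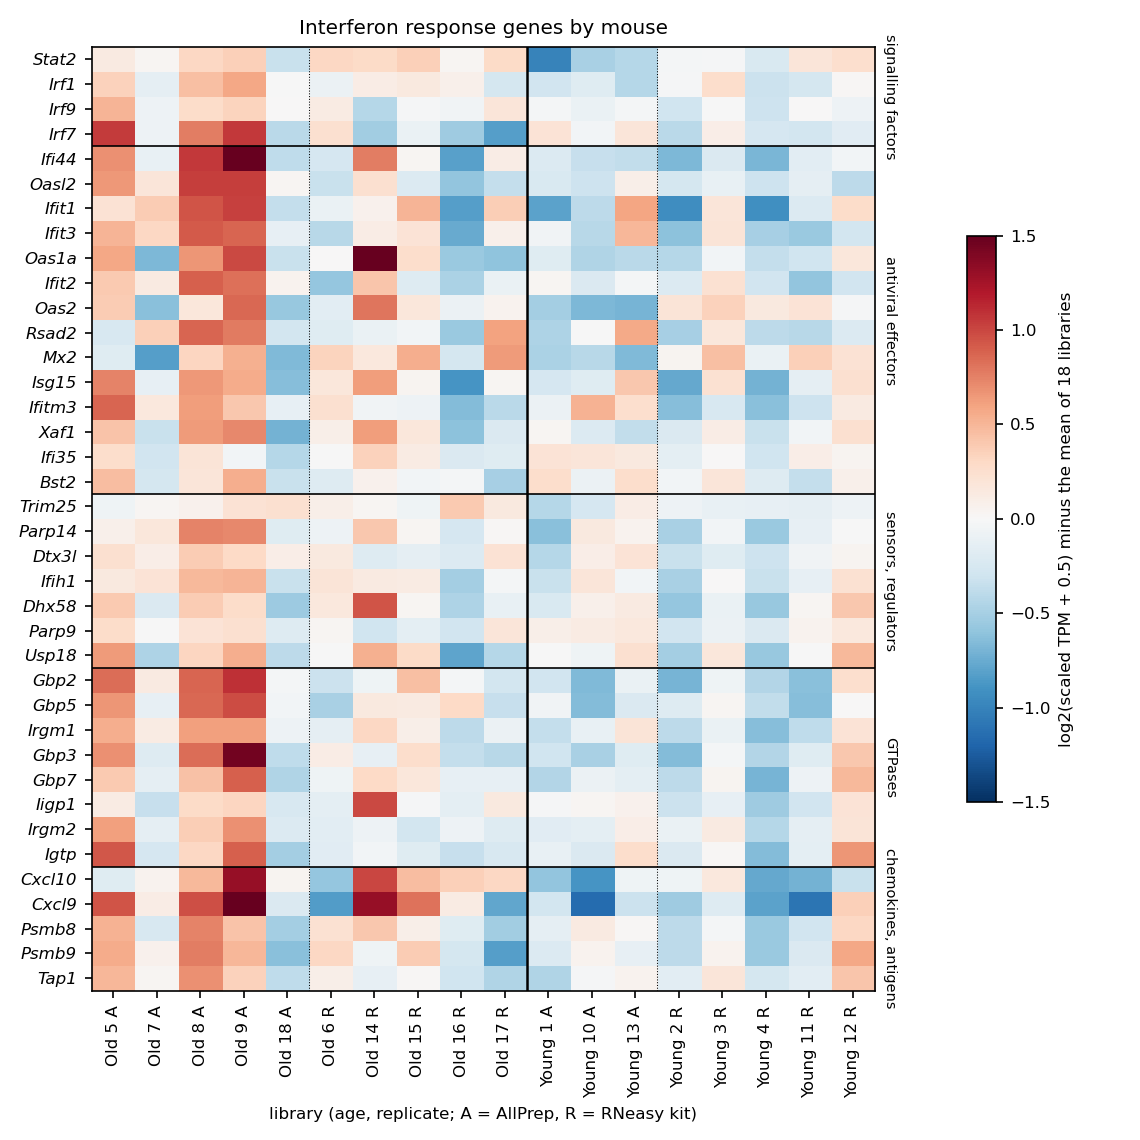
Level of each member in each liver as log2(scaled TPM + 0.5) minus its mean over the 18 libraries, Old left of Young, with AllPrep (A) before RNeasy (R) libraries and colours held at 1.5 in either direction. Old 5, Old 8 and Old 9 are red for most members, whereas Old 16, Young 2 and Young 4 are blue for most.

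Markers of immune cells were high in some of the same livers and in some others. Summed T and NK cell markers (9 of 12 passed the filter) were 7.82 to 28.5 scaled TPM in Old and 6.64 to 16.2 scaled TPM in Young livers. The 2 highest values were in Old 9 (28.5) and Old 8 (25.7), while Old 5 had 11.9 and Old 14 had 9.72. Of the 9 tested T and NK cell markers 0 were called in the age fit. Kupffer cell and macrophage markers (11 of 11 passed) summed to 357 to 1098 scaled TPM in Old and 344 to 697 scaled TPM in Young livers. The highest were Old 8 (1098), Old 14 (914.5), Old 9 (797) and Old 5 (758). Old 18 came next with 729, though its average deviation over the 38 members was -0.28 log2 units. All of these livers but Old 14 are AllPrep libraries. Vsig4, Adgre1, Csf1r, Cd68 and C1qc were called higher with AllPrep, where 5.65% of all genes were, and the other markers were not called for the kit. These sums thus follow the kit as well as the liver. In the age fit 0 of the 11 markers were called and 9 had a positive log2 fold, while Marco (-0.44) and Timd4 (-0.35) were negative. B and plasma cell markers (7 of 7 passed) summed to 54.1 to 240.5 scaled TPM in Old and 14.5 to 65.6 scaled TPM in Young livers. Of these 7 markers 2, Ighm and Jchain, were called higher in Old, where 2.44% of all genes were. The highest sums of B and plasma cell markers were in Old 8 (240.5) and Old 6 (234.6). The average deviation of Old 6 over the 38 members was -0.06 log2 units. Neutrophil markers, with Mpo at 0 in at least 1 library, summed to 8.80 to 88.5 scaled TPM in Old and 4.81 to 31.3 scaled TPM in Young livers, Old 8 being highest. Of the 4 tested neutrophil markers 0 were called. Plasmacytoid dendritic cell markers summed to 119 to 487 scaled TPM in Old and 134 to 196 scaled TPM in Young livers, with Old 14 highest. Outside Old 14 most of that sum was Bst2, itself a member, so the sum largely repeats a member's level. In Young livers Bst2 had a mean of 159 and the sum a mean of 171 scaled TPM, and in Old livers the means were 158 and 215. In Old 14 Bst2 had 163 and Ly6d 312 scaled TPM, and Siglech, the defining gene of these cells, had 0.77. Of the 4 tested plasmacytoid dendritic cell markers Tcf4 was called higher in Old, where 2.44% of all genes were. Among markers of hepatocytes, sinusoidal endothelial cells, stellate cells and cholangiocytes, of which 8, 8, 7 and 3 were tested, 0 were called. The part of these cells in the members' levels was not tested.

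The log2 fold of most members was larger in the AllPrep than in the RNeasy livers. Within AllPrep (5 Old and 3 Young) 35 of 38 members were positive with a median of 0.36, and within RNeasy (5 Old and 5 Young) 30 were positive with a median of 0.14. Over all genes 52.9% were positive within AllPrep and 49.8% within RNeasy. No member was called within either kit, where the same rule called 0.705% of all genes higher and 0.396% lower in AllPrep and 0.0504% each way in RNeasy. At an unadjusted p under 0.05 in limma, 9 members were higher and 0 lower in AllPrep, where 19.2% of all genes passed in either direction, and 2 members were higher and 0 lower in RNeasy, where 9.17% of all genes passed. Without Old 14, which has the highest level of 4 members, the RNeasy livers had 26 positive members, against 51.5% of all genes, a median of 0.09 and again 0 called. For Stat2 the AllPrep livers gave 17.0, 22.1, 23.8, 26.9 and 27.9 scaled TPM in Old mice 18, 7, 5, 8 and 9. Young mice 1, 10 and 13 had 10.6, 15.3 and 16.0 scaled TPM. The RNeasy livers gave 22.0 to 28.0 scaled TPM in Old and 18.4 to 25.9 scaled TPM in Young mice. The log2 fold of Stat2 was 0.73 in AllPrep (adjusted p = 0.0996) and 0.22 in RNeasy (adjusted p = 0.558).

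A member's age effect was not shown to depend on the kit. In the test of the difference itself, age by kit in limma, 0 members and 0 of all genes were called, and 0 members were called with limma-voom on the recovered reads. At an unadjusted p under 0.05 there were 3 members, where 4.22% of all genes passed. Without Old 14, 0 members were called and 5 had an unadjusted p under 0.05, where 8.59% of all genes passed. The 3 members in all livers were Oasl2 (0.74 larger in AllPrep on the log2 scale, p = 0.0202), Stat2 (0.51, p = 0.0255) and Irf1 (0.48, p = 0.0365), all with an adjusted p of 0.975. In all, 34 of 38 members had the larger log2 fold in AllPrep. The share of all genes with a larger fold in AllPrep was not computed. The median age by kit term was 0.27 for the members and 0.02 for all genes. As the members vary together between mice, these are not 34 separate observations. Cxcl10 (0.85 in AllPrep and 0.66 in RNeasy) and Trim25 (0.29 in AllPrep and 0.22 in RNeasy) had positive log2 folds in both kits, whereas Oasl2 had 0.73 in AllPrep and -0.0085 in RNeasy. The kit itself went with member levels: Ifitm3, Irf7, Ifit3 and Oasl2 were called higher with AllPrep and Mx2 and Stat2 lower, where 5.65% of all genes were called higher and 12.6% lower.

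**Figure D5:**
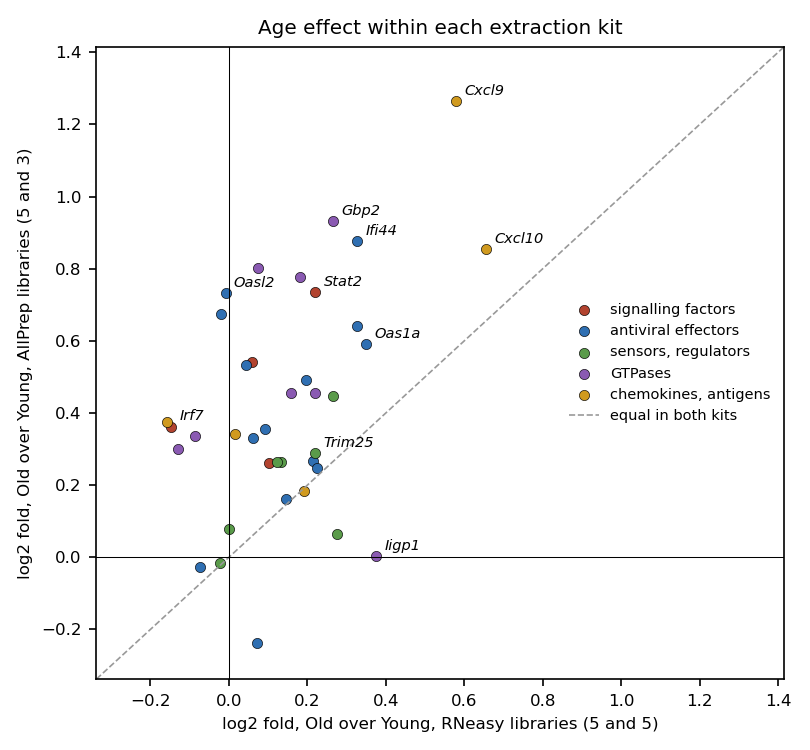
Log2 fold of each member, Old over Young, within AllPrep libraries (vertical axis, 5 Old and 3 Young) against that within RNeasy libraries (horizontal axis, 5 Old and 5 Young), coloured by role. Of the 38 points, 34 lie above the dashed line of equal folds, but the members vary together between mice, so these are not 34 separate observations.

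Insulin suppressed glucose production by the liver, a readout of hepatic insulin action, by 25.4% to 68.4% in Old and by 68.4% to 92.0% in Young mice. With age and kit as terms, 0 of the 38 members and 0 of all 13895 genes had a called slope on this suppression in limma, and 5 members had an unadjusted p under 0.05, all positive, where 9.12% of all genes passed in either direction. Usp18 had the smallest p, with a slope of 0.021 ± 0.0071 log2 units per percent (SE, unadjusted p = 0.00852, adjusted p = 0.545), and Cxcl9 followed with 0.033 ± 0.012 (SE, unadjusted p = 0.0115, adjusted p = 0.545). Bst2, Oas1a and Ifi35 were the other 3. The slope was positive for 33 members, which vary together between mice, while Irf9, Rsad2, Trim25, Parp14 and Dtx3l had negative slopes. With limma-voom on the recovered reads 0 members were called and 6 had an unadjusted p under 0.05, where 8.71% of all genes passed.

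Among tested genes that lead to, receive or restrain interferon signals, Ticam1 rose and Socs3 fell. Of 15 ligands, receptors and receptor kinases, 9 were in the table. The ligand genes Ifnb1, Ifna2, Ifna4, Ifng, Ifnl2 and Ifnl3 were not, so no interferon gene was tested. Of the 15, 8 passed the filter, all of them receptors or receptor kinases, and 0 were called. The lowest p there were those of Il10rb, a chain of the lambda interferon receptor (log2 fold 0.35, adjusted p = 0.0940), and Ifnar2, a chain of the type I receptor (0.08, adjusted p = 0.399). Of 13 tested sensors, adaptors and kinases upstream of interferon, 1 was called higher and 0 lower, against 2.44% and 2.47% of all genes. That gene, Ticam1, the adaptor TRIF of Toll-like receptor 3, had 13.4 to 20.2 scaled TPM in Old livers (median 15.5) and 10.9 to 14.3 scaled TPM in Young livers (median 12.7), and the log2 fold was 0.35 ± 0.08 (SE, adjusted p = 0.0197). Sting1, the adaptor for cytosolic DNA, had a log2 fold of 0.28 (adjusted p = 0.218).

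Among 9 tested genes listed as negative regulators of interferon signalling, 0 were called higher and 1 lower, against 2.44% and 2.47% of all genes. The 9 were Socs1, Socs3, Ptpn2, Ptpn6, Pias1, Samhd1, Adar, Rnf125 and Isg20, the last of which is an antiviral effector. The log2 fold was positive for 6 of the 9, with a median of 0.10. Socs3, a feedback inhibitor of cytokine receptor signalling, fell to 5.23 to 25.2 scaled TPM in Old livers (median 10.6), against 26.8 to 54.3 scaled TPM in Young livers (median 39.1), without overlap. The log2 fold was -1.68 ± 0.25 (SE, adjusted p = 0.00277). Ptpn6, a phosphatase that dampens receptor kinases, had a log2 fold of 0.19 (adjusted p = 0.0873). Socs3 and Ticam1 kept their calls without any single library. They were not called within AllPrep (-1.61, adjusted p = 0.0863, and 0.49, adjusted p = 0.0977), within RNeasy (-1.73, adjusted p = 0.0755, and 0.24, adjusted p = 0.482) or with body weight as a term (-0.91, adjusted p = 0.361, and 0.32, adjusted p = 0.367). The 13 MHC class I presentation genes had a median log2 fold of 0.10 with 0 called, the lowest p being those of Tap2, the partner of Tap1 (0.17, adjusted p = 0.441), and H2-T23, a non-classical class I gene (0.14, adjusted p = 0.442).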

How the data were processed

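Ribosomal RNA-depleted libraries of 18 mouse livers were sequenced, 1 per mouse; groups, kits and traits came from the labels. The authors deposited 1 table of TPM, in which each library sums to 1000000 over 18946 genes. The submitters' processing notes name STAR 2.7.9a, Subread and featureCounts and the builds GRCm39 and mm10, with no role for each; the sources used here do not give the gene lengths, the annotation or the strand setting. Reads were recovered by estimating a scale per library and then taking, for each gene, the smallest whole numbers that matched its scaled TPM in every library. Whole numbers were found, within 0.001, for 18946 of 18946 genes, and no value was more than 2.4e-08 away from one. A factor common to all libraries of a gene cannot be seen in this way, so reads of a gene may be understated. A gene seen in only 1 library returns 1 read by construction.

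Genes reaching 0.5 TPM in 8 or more libraries were kept, 13895 in all. A composition factor per library, the mean log ratio after trimming 30% of log ratios and 5% of levels at each end, scaled the TPM values. The age test used limma (version 3.58.1, R version 4.3.3) on log2(scaled TPM + 0.5), with a variance trend, terms for age and kit, and Benjamini-Hochberg adjustment over all genes. The slope on glucose suppression and the age by kit term were added to that fit. Principal components used residuals scaled to unit length per gene. The procedures were tested on simulated data. Values are printed for called members and for the 4 members of each role group with the smallest p, and for called genes and the 2 genes of smallest p of each pathway list; Isg15, Mx2 and Ifitm3 were added after their values were seen. The members and lists were chosen with earlier results of these data known. Alternatives changed the kit term, the kits included, scaling, filter, pseudocount, body weight, library weights, each library left out, and limma-voom on recovered reads, which was chosen after seeing the data. Plots were drawn with matplotlib 3.10.9 in Python 3.11.15.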

Additional observations from a re-analysis of the deposited data

Results flagged for a closer look

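Of 76 groups of values, 38 members in 2 ages, 5 held 1 liver far from the others of its age by Dixon's criterion, where chance flags about 1 in 20 groups. Old 14 was the far liver for 3 of them. Iigp1, an immunity-related GTPase, had 474.9 scaled TPM in Old 14, and the next Old liver had 299 scaled TPM. Dhx58, the RNA sensor LGP2, had 18.7 scaled TPM in Old 14, and the next Old liver had 12.7 scaled TPM. Oas1a, an oligoadenylate synthetase, had 11.0 scaled TPM in Old 14, and the next Old liver had 6.55 scaled TPM. Gbp3, a guanylate-binding protein, had 13.5 scaled TPM in Old 9, and the next Old liver had 8.70 scaled TPM. Psmb9, an immunoproteasome subunit, had 18.9 scaled TPM in Young 12, and the next Young liver had 13.0 scaled TPM.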

How the results depend on the processing

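The single member called higher, Stat2, remained the only one with limma-voom on recovered reads (adjusted p = 0.0351), other pseudocounts, other filters, median-of-ratios scaling or no composition factor. The count was 0 with no kit term, with AllPrep or RNeasy livers alone, with RNeasy livers without Old 14 and with body weight as a term, 2 with library weights (Stat2 and Trim25), and 0 to 2 with each library left out. No member was called lower in any of these fits. In RNeasy livers alone 8 members had a negative log2 fold: Bst2 and Parp9, as in all livers, and Oasl2 (-0.0085), Irf7 (-0.15), Tap1 (-0.16), Igtp (-0.13), Irgm2 (-0.09) and Oas2 (-0.02). Without Old 14 as well 12 were negative, Oasl2 at -0.13 and Irf7 at -0.10; the cause was not tested. Without the composition factor 341 genes were called higher and 188 lower, against 339 and 343. The counts of genes higher and lower were 704 and 697 with library weights, 98 and 55 in AllPrep, 7 and 7 in RNeasy, 35 and 29 in RNeasy without Old 14, and 3 and 0 with body weight. Leaving out 1 library gave 176 to 510 higher. Counts of members with a called slope or age by kit term stayed at 0. No paired analysis was possible because no replicate number occurs in both ages. AllPrep holds 3 Young mice, which limits the fits within it.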
